A study of Mus musculus with 9 samples.

Results

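The mitochondrial genome carries 7 genes for subunits of respiratory complex I, the mt-Nd genes, and these were followed here across 9 RNA sequencing libraries from mouse brain. They were taken by symbol, as every row whose gene name began with mt-Nd. All 7 were among the 237 genes of the table on overexpression, and 6 of them (all but mt-Nd6) were among the 194 genes of the table on immunoprecipitation. The RNA came from the medial prefrontal cortex of C57BL/6 mice. Of the 3 groups with 3 libraries each, the first held the insoluble fraction of mice aged 22 months, named insoluble here. The second held overexpression of YTHDF1 and YTHDF2 together (OE), and the third held RNA immunoprecipitated with YTHDF2 (RIP). The labels give no age for the OE and RIP animals, no vector, promoter or antibody, no fraction from which the OE RNA came, and no input library for the RIP. They also do not say whether the replicates came from separate animals, so the p-values measure the spread between these samples, which may be technical.

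Complex I is the entry point of the respiratory chain. It takes electrons from NADH, passes them to ubiquinone and pumps protons across the inner mitochondrial membrane. The mt-Nd genes encode hydrophobic subunits of its membrane arm, while the remaining subunits are encoded in the nucleus and imported. Both strands of mitochondrial DNA are transcribed as long precursors, from which the mRNAs are released, in most places by removal of the transfer RNAs between them. YTHDF1 and YTHDF2 are cytoplasmic proteins that bind RNA carrying N6-methyladenosine (m6A), and YTHDF2 is known for promoting the decay of such RNA.

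Before the counts, the sequences are given, because they bear on which of these genes can be counted at all. Positions are those of GENCODE release M21 on GRCm38, which is the build mm10 named in the submitters' processing notes. All 7 genes are annotated as protein-coding and lie on chromosome M. mt-Nd1 runs from 2751 to 3707, mt-Nd2 from 3914 to 4951, mt-Nd3 from 9459 to 9806, mt-Nd4l from 9877 to 10173, mt-Nd4 from 10167 to 11544 and mt-Nd5 from 11742 to 13565, all on the plus strand. mt-Nd6 runs from 13552 to 14070 on the minus strand. Their lengths are 957, 1038, 348, 297, 1378, 1824 and 519 bases for mt-Nd1, mt-Nd2, mt-Nd3, mt-Nd4l, mt-Nd4, mt-Nd5 and mt-Nd6. The first 45 bases of each are shown to tell the members apart, with the start codon in capitals.
mt-Nd1: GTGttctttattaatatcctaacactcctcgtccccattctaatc
mt-Nd2: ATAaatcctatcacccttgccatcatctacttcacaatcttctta
mt-Nd3: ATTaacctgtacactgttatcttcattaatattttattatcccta
mt-Nd4l: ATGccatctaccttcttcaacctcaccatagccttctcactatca
mt-Nd4: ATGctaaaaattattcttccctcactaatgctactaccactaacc
mt-Nd5: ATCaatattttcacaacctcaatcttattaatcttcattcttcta
mt-Nd6: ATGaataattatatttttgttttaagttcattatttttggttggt
The start codons differ, and GTG, ATA, ATT and ATC begin mt-Nd1, mt-Nd2, mt-Nd3 and mt-Nd5. The 6 genes on the plus strand were poor in G, from 7.996% in mt-Nd2 to 11.6% in mt-Nd1. mt-Nd6, read from the other strand, had 28.1% G and 5.97% C.

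Neighbouring members share bases. mt-Nd4l and mt-Nd4 are read in the same direction and overlap by 7 bases, from 10167 to 10173. mt-Nd5 and mt-Nd6 are read in opposite directions and overlap by 14 bases, from 13552 to 13565. Both overlaps are shown on the plus strand with 20 bases on each side and the shared bases in capitals.
mt-Nd4l and mt-Nd4: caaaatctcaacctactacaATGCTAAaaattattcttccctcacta
mt-Nd5 and mt-Nd6: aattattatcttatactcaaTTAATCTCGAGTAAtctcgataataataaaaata
Whether counting used strand is not given in the sources used here. Without it, reads over the second overlap cannot be assigned to mt-Nd5 or mt-Nd6.

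Of the members, 3 have a near-identical copy in the nuclear genome, within a stretch of chromosome 1 (GRCm38) annotated as unprocessed pseudogenes on the minus strand. Gm28438, from 24612775 to 24613119, aligned to mt-Nd3 over 345 bases with 1 mismatch. Gm10222, from 24612407 to 24612700, aligned to mt-Nd4l over 294 bases with 0 mismatches. Gm28439, from 24611535 to 24612410, aligned to mt-Nd4 over 876 bases, also with 0 mismatches. The first 60 bases of mt-Nd3 and of its copy are shown with the mismatch in capitals, followed by those of mt-Nd4l and its copy, which are identical.
mt-Nd3: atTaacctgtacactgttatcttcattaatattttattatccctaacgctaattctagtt
Gm28438: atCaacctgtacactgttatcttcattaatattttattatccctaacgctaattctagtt
mt-Nd4l: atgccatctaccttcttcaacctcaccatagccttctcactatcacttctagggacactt
Gm10222: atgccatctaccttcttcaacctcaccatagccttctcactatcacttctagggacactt
The difference in the first pair is T3C, counted from the first base of mt-Nd3, and so falls in the start codon.

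The share of each gene's 50-base words that occur in no nuclear transcript of the annotation was 100% for mt-Nd1 and mt-Nd6, 92.4% for mt-Nd5 and 91.8% for mt-Nd2. It was 37.8% for mt-Nd4, 2.01% for mt-Nd3 and 1.21% for mt-Nd4l. With words of 100 bases, a length tried after the data had been seen, it was still 39.25%, 2.41% and 1.52% for the last 3. The counts of mt-Nd3, mt-Nd4l and mt-Nd4 are therefore uncertain. mt-Nd3 and mt-Nd4l are given below alone and together with their copies, and mt-Nd4 is given alone. The copies of mt-Nd3 and mt-Nd4l were listed in both tables, and that of mt-Nd4 in the overexpression table.

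The tables held selected genes, so the sums of counts per library were not sequencing depths. They ran from 66812 to 99369 over the 237 genes of the overexpression table and from 61610 to 83620 over the 194 genes of the immunoprecipitation table. None of the 39 nuclear complex I subunits, the 17 complex I assembly factors and the 22 genes of mitochondrial RNA synthesis and processing that were looked for was among the genes analysed here. Nor was any of 12 neuronal, 10 astrocyte, 10 oligodendrocyte, 10 microglial and 5 red blood cell markers, so the labelled tissue was not checked against them. Ythdf1 and Ythdf2 were not among the listed genes, so the overexpression was not checked. Of 16 endothelial markers, 13 were in the overexpression table and 11 in the other. Summed counts were 1183 to 1384 in insoluble and 1205 to 1422 in OE libraries over the 13, and 2878 to 3681 in RIP over the 11. Single markers went both ways in RIP against insoluble, with Sox7 and Robo4 higher and Kdr and Cdh5 lower. The part of these markers in the results was not tested. In bulk samples, fewer cells of a type and less RNA per cell cannot be told apart.

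A limit on the RIP values stands before all results that use them. Across the 194 genes, the fold changes in the authors' deposited table did not track the counts of the same rows (Spearman rho 0.0993, across genes, which are not independent replicates), whereas in the overexpression table they did (rho -0.997, as a ratio of insoluble to OE). Among the members, the authors' deposited table gave 0.0798 for mt-Nd4l and 11.7 for mt-Nd4. The summed RIP counts were 17.3 times the insoluble counts for mt-Nd4l and 8.30 times for mt-Nd4, so both were higher in RIP by counts. Whichever way the deposited column runs, 1 of these 2 values goes against its own counts. For mt-Nd2 the authors' deposited table gave 0.742 beside a count ratio of RIP to insoluble of 0.222. For mt-Nd5 it gave 0.883 beside 0.934. No other column allows a check that each RIP count stands in the row of its gene, and RIP values are given as the rows stand.

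With nuclear copies counted apart, mt-Nd2 had the highest mean level of the members in all 3 groups on the scale of raw counts per kilobase of gene length. In RIP its range overlapped that of mt-Nd3, and with copies included it was not the highest there. In the insoluble fraction it stood at 1961 ± 123 counts per kilobase (SD, n = 3), followed by mt-Nd3 at 733 ± 54.8. mt-Nd5 at 279.8 ± 19.1 and mt-Nd1 at 255.3 ± 24.9 came next, and their ranges over the 3 libraries overlapped. mt-Nd4l at 6.73 ± 5.83, mt-Nd4 at 2.42 ± 0.419 and mt-Nd6 at 0.642 ± 1.11 formed the bottom. In OE the order was the same except that mt-Nd1 (347.3 ± 36.5) stood above mt-Nd5 (286.7 ± 26.9), in 3 of 3 libraries but with overlapping ranges.

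In RIP the members, counted without copies, lay closer together. mt-Nd2 stood at 434.8 ± 56.2 counts per kilobase (SD, n = 3), mt-Nd3 at 382.2 ± 26.3, mt-Nd1 at 294.0 ± 55.9 and mt-Nd5 at 261.3 ± 4.66, and each neighbouring pair among these 4 overlapped. mt-Nd4l at 116.7 ± 20.6 and mt-Nd4 at 20.1 ± 1.11 lay below them without overlap.

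This order changed when each pair of gene and copy was counted as 1 feature over the length of the mitochondrial gene. In RIP the mt-Nd4l pair stood at 1614 ± 94.4 counts per kilobase and the mt-Nd3 pair at 1357 ± 89.6 (SD, n = 3), both above mt-Nd2 in every library. In insoluble the mt-Nd3 pair stood at 1150 ± 65.6 and the mt-Nd4l pair at 407.4 ± 59.9, and in OE at 1417 ± 160 and 713.8 ± 120. mt-Nd2 remained above both pairs in all 6 of those libraries.

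mt-Nd6, the only member on the minus strand, was at the detection limit. It held 0, 0 and 1 counts in insoluble replicates 1 to 3 and 1, 0 and 0 in OE replicates 1 to 3. No fold is given. Whether the share of unique words bears on the counts was not tested. All words of mt-Nd6 were unique, and mt-Nd3, with 2.01% unique, held between 233 and 351 counts in these 6 libraries. In the same libraries mt-Nd4l, with 1.21% unique, held between 1 and 4 counts, and mt-Nd4, with 37.8% unique, between 3 and 11.

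**Figure D1:**
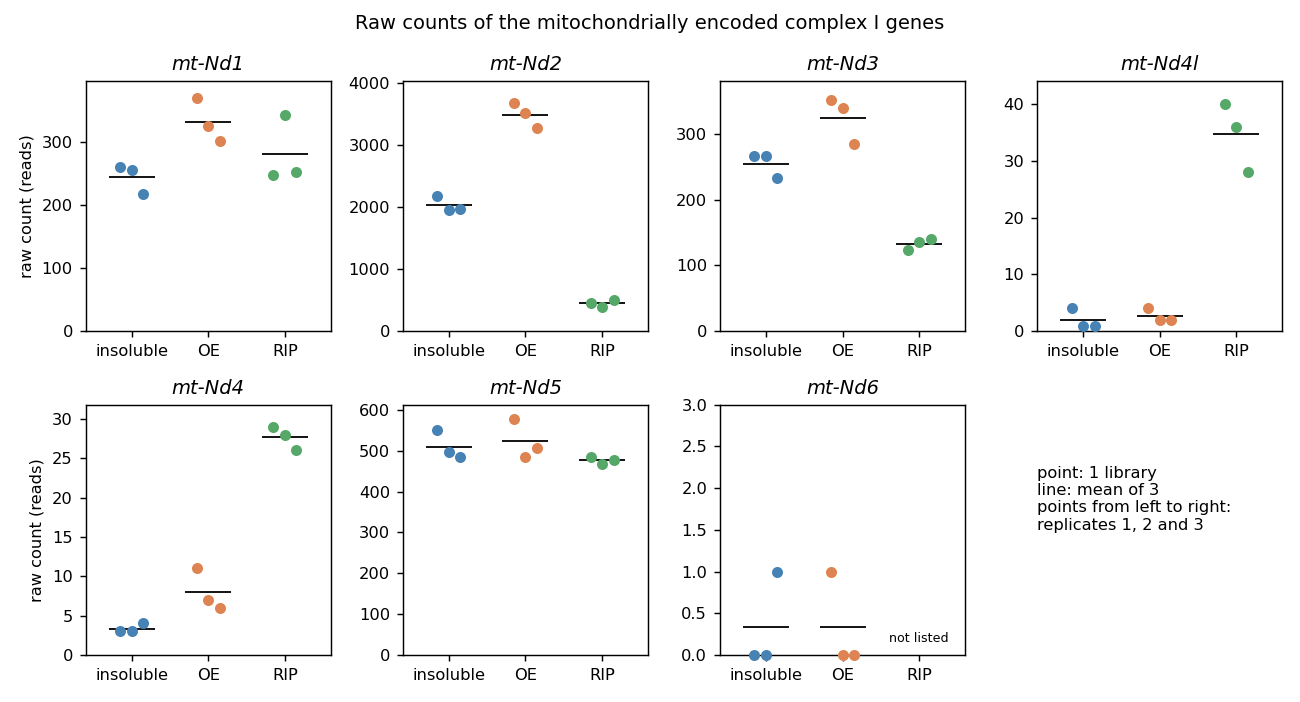
Raw counts of the 7 mt-Nd genes in each library. Each panel is 1 gene with its own linear axis from 0, points are libraries (insoluble, OE, RIP), and lines are group means. mt-Nd2 is higher in all OE libraries (3277 to 3673) than in insoluble ones (1960 to 2183) and lowest in RIP (390 to 506), whereas mt-Nd4 and mt-Nd4l are highest in RIP.

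The first comparison asked how the members differed between OE and the insoluble fraction. No group without overexpression is matched to OE, whose age and fraction are not labelled. Overexpression, age and fraction therefore cannot be told apart here. In all comparisons, rose and fell mean higher and lower values between groups, not a response. By edgeR's quasi-likelihood test, with Benjamini-Hochberg adjustment over all tested genes and an adjusted p-value under 0.05 as the threshold, mt-Nd2 and mt-Nd1 rose in OE and mt-Nd5 fell. mt-Nd3 did not pass the test, and mt-Nd4, mt-Nd4l and mt-Nd6 had too few counts to be tested. Of the 4 members tested, 3 were called, against 39.5% of all 195 tested genes. In each direction, 2 were higher, against 21.0% of all tested genes, and 1 was lower, against 18.5%. Over all genes, 41 were higher and 36 lower, or 31 and 47 with library totals alone, where mt-Nd1 was not called. The normalised counts of the groups did not overlap in 4 of these 4 members and in 49.2% of all tested genes. To obtain a normalised count, the raw count was divided by the scaled size of its library, set relative to the mean of the 6 libraries compared.

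mt-Nd2, a subunit of the proton-pumping membrane arm, held 2183, 1960 and 1964 counts in insoluble replicates 1 to 3 and 3673, 3508 and 3277 in OE replicates 1 to 3. Every OE library lay above every insoluble library. Normalised counts rose from 2215 ± 110 to 3241 ± 171 (SD, n = 3 each). The log2 fold change was 0.55 ± 0.04 (SE; edgeR adjusted p = 3.94e-26). This placed mt-Nd2 at rank 19 from the highest of 195 genes, whose interquartile range ran from -0.20 to 0.24. The call held in all 13 alternatives fitted, with log2 fold changes from 0.46 to 0.59. The edgeR adjusted p-value ran from 2.56e-45 without OE replicate 3 to 0.000326 in the fit of all 9 libraries. Because edgeR estimates spread partly from all genes in a fit, the size of this p-value depended strongly on the fit. Only the call and the fold are read here. In the authors' deposited table the ratio of insoluble to OE was 0.700, with an unadjusted p-value of 2.3e-24.

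mt-Nd5, the largest member and likewise part of the membrane arm, went the other way. It held 550, 496 and 485 counts in insoluble and 578, 484 and 507 in OE, so that the raw counts overlapped. After scaling, normalised counts fell from 555.1 ± 20.6 to 486.3 ± 43.2 (SD, n = 3 each) and no longer overlapped. This gave a log2 fold change of -0.19 ± 0.07 (SE; edgeR adjusted p = 0.0198). The call was lost without insoluble replicate 1, 2 or 3 or without OE replicate 1 or 2, where adjusted p-values ran from 0.0581 to 0.183. It was also lost in DESeq2 (adjusted p = 0.0629) and in the edgeR fit of all 9 libraries (adjusted p = 0.0976), and so in 7 of 13 alternatives. In the authors' deposited table the ratio of insoluble to OE was 1.17, with an unadjusted p-value of 0.0149.

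mt-Nd1, the subunit next to the ubiquinone-binding site, held 261, 255 and 217 counts in insoluble and 370, 326 and 301 in OE. Normalised counts rose from 265.2 ± 8.66 to 308.0 ± 8.29 (SD, n = 3 each), with no overlap. The log2 fold change was 0.21 ± 0.09 (SE) and the edgeR adjusted p-value 0.0382. The call was lost in 9 of 13 alternatives, among them the fits without insoluble replicate 1, 2 or 3 or OE replicate 1 or 3 (adjusted p from 0.0505 to 0.11) and DESeq2 (adjusted p = 0.132). In the authors' deposited table its unadjusted p-value was 0.114.

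mt-Nd3 held 266, 266 and 233 counts in insoluble and 351, 339 and 285 in OE. The normalised counts were 277.2 ± 8.67 and 301.1 ± 8.36 (SD, n = 3 each), a log2 fold change of 0.12 ± 0.09 (SE) that did not pass the test (edgeR adjusted p = 0.276). Its copy Gm28438 held 147, 148 and 141 counts in insoluble and 195, 159 and 150 in OE (log2 fold change -0.02 ± 0.11, edgeR adjusted p = 0.885). mt-Nd3 and its copy counted as 1 feature gave 0.07 ± 0.07 (edgeR adjusted p = 0.451), so the outcome was the same with and without the copy.

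mt-Nd4 and mt-Nd4l were near the floor. mt-Nd4 held 3, 3 and 4 counts in insoluble and 11, 7 and 6 in OE. The ratio of its scaled sums, OE to insoluble, was 2.05, with an exact 95% interval of 0.943 to 4.80 for counting error only, so that no difference was detectable at these counts. mt-Nd4l held 4, 1 and 1 counts in insoluble and 4, 2 and 2 in OE, a scaled ratio of 1.14 with an interval of 0.346 to 3.98.

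The copy of mt-Nd4l took nearly all counts of that sequence. Gm10222 held 131, 126 and 100 counts in insoluble and 227, 232 and 169 in OE, and mt-Nd4l made up between 0.787% and 2.96% of the sum in these 6 libraries. Gm10222 rose by a log2 fold change of 0.58 ± 0.11 (SE; edgeR adjusted p = 5.95e-06). mt-Nd4l and Gm10222 counted as 1 feature had 131.0 ± 9.78 normalised counts in insoluble and 195.7 ± 17.9 in OE (SD, n = 3 each) and rose (log2 fold change 0.58 ± 0.11, edgeR adjusted p = 7.78e-06). Which of the 2 loci gave these reads cannot be told apart over their identical bases.

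Relative to mt-Nd1, mt-Nd3 and mt-Nd5, mt-Nd2 was higher in OE, by ratios within a library that need no scaling. Ratios among the other members were not taken. The ratio of mt-Nd2 to mt-Nd5 counts was 3.97, 3.95 and 4.05 in insoluble and 6.36, 7.25 and 6.46 in OE replicates 1 to 3. The ratio of mt-Nd2 to mt-Nd1 was 8.36, 7.69 and 9.05 in insoluble and 9.93, 10.8 and 10.9 in OE. That to mt-Nd3 was 8.21, 7.37 and 8.43 against 10.5, 10.3 and 11.5. None of these ranges overlapped. In an exact permutation test over libraries, two-sided, each ratio gave p = 0.1 (0.1 after Benjamini-Hochberg adjustment over 9 comparisons of such ratios), the smallest value that 3 against 3 libraries allow.

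Of the other mitochondrially encoded mRNAs, 5 of 6 were listed (mt-Co1, mt-Co2, mt-Co3, mt-Atp6 and mt-Cytb), encoding subunits of complexes III, IV and V. In OE, 3 of these were tested and 1 was called. mt-Co1, with 48.9% of its words unique, rose by a log2 fold change of 0.58 ± 0.13 (SE; edgeR adjusted p = 0.000104). This was close in size to that of mt-Nd2 but less even between libraries. Its normalised counts were 94.1, 104 and 107 in insoluble replicates 1 to 3 and 173, 163 and 113 in OE replicates 1 to 3. mt-Cytb (0.08 ± 0.05) and mt-Atp6 (0.04 ± 0.08) did not pass.

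For each of the 4 members with enough counts, the listed gene whose profile was most like it over the 6 insoluble and OE libraries was found by Pearson's r of log2 CPM (counts scaled to library size), among 191 genes. Slc26a10 was most like mt-Nd2 (r = 0.987), Sbsn most like mt-Nd1 (0.964), Cyp3a13 most like mt-Nd3 (0.953) and Foxf1 most like mt-Nd5 (0.943). These are descriptions over 6 points in 2 groups that share scaling, and a gene that differs between the groups in the same direction scores highly for that reason alone.

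**Figure D2:**
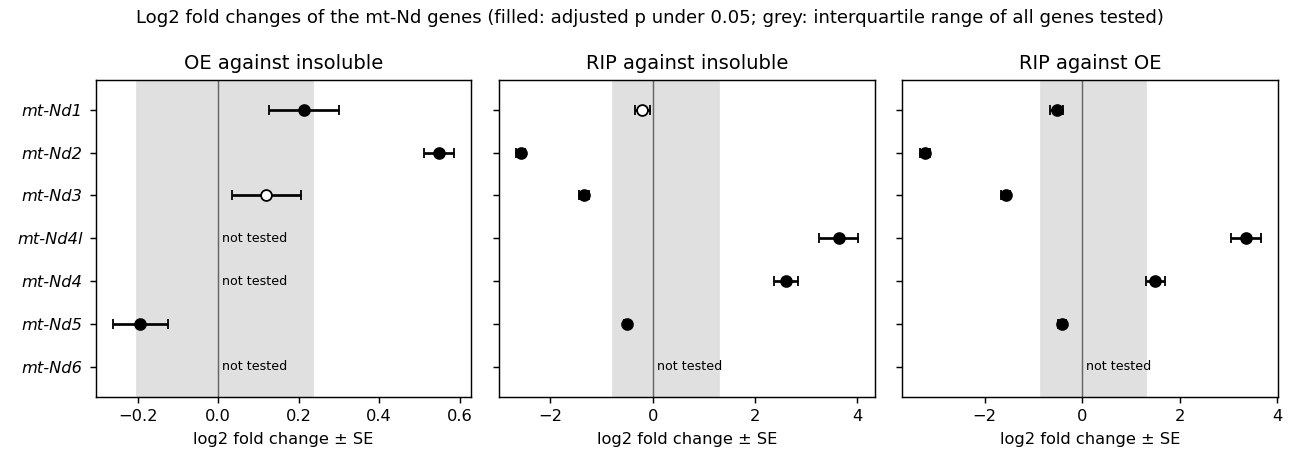
Log2 fold changes of the mt-Nd genes with standard errors in the 3 comparisons, each panel with its own scale. Filled points passed an adjusted p-value of 0.05 in edgeR, and the grey band is the interquartile range of all genes tested. mt-Nd2 lies outside the band in each panel, above it in OE (0.55) and below it in both RIP panels (-2.58 and -3.23), and mt-Nd4 and mt-Nd4l lie above it in both RIP panels.

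The second comparison set RIP against the insoluble fraction. mt-Nd2, mt-Nd3 and mt-Nd5 fell in RIP, mt-Nd4 and mt-Nd4l rose, and mt-Nd1 did not pass. Most listed genes differed between these groups, 85.3% of 190 tested, so that the call of 5 of 6 members is near the background. In each direction 2 were higher, against 40.5% of all tested genes, and 3 were lower, against 44.7%. The groups did not overlap in 5 of 6 members and in 87.9% of all genes. mt-Nd4 and mt-Nd4l passed the filter on low counts through the RIP libraries, where they are high, so the counts of calls support nothing about the members. The median log2 fold change over all tested genes was 0.03 and the interquartile range ran from -0.77 to 1.30.

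mt-Nd2 held 458, 390 and 506 counts in RIP replicates 1 to 3, every one below the lowest insoluble count of 1960. Normalised counts fell from 2373 ± 113 to 395.4 ± 48.5 (SD, n = 3 each). The log2 fold change was -2.58 ± 0.09 (SE) with an edgeR adjusted p-value of 1.82e-08, at rank 18 from the lowest of 190 genes. The direction of mt-Nd2 in RIP was thus opposite to that in OE. The 2 comparisons share their insoluble libraries.

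mt-Nd5 changed less. Its raw counts of 485, 468 and 477 in RIP met those of the insoluble fraction at 485. Normalised counts fell from 594.7 ± 20.9 to 417.8 ± 1.28 (SD, n = 3 each), a log2 fold change of -0.51 ± 0.06 (SE; edgeR adjusted p = 5.14e-05). mt-Nd1 held 248, 343 and 253 counts in RIP, with replicate 2 above the other 2. Its normalised counts were 284.2 ± 9.91 in insoluble and 247.1 ± 51.1 in RIP, which overlapped (log2 fold change -0.20 ± 0.14, SE; edgeR adjusted p = 0.218). Without RIP replicate 2 it passed the test, at -0.38 (edgeR adjusted p = 0.00597).

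mt-Nd3 held 123, 135 and 141 counts in RIP, all below the insoluble counts of 233 to 266. Normalised counts fell from 297.0 ± 9.96 to 116.7 ± 9.66 (SD, n = 3 each), a log2 fold change of -1.35 ± 0.10 (SE; edgeR adjusted p = 3.45e-06). Its nuclear copy moved the opposite way. Gm28438 held 314, 361 and 343 counts in RIP against 141 to 148 in insoluble, a log2 fold change of 0.81 ± 0.10 (SE; edgeR adjusted p = 9.91e-05).

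Counted as 1 feature, mt-Nd3 and Gm28438 gave 464.4 ± 16.9 normalised counts in insoluble and 416.0 ± 34.5 in RIP (SD, n = 3 each). This log2 fold change, -0.16 ± 0.08 (SE), did not pass (edgeR adjusted p = 0.0952). The share of the pair's counts assigned to mt-Nd3 was between 62.3% and 64.4% in the insoluble libraries, between 64.3% and 68.1% in OE and between 27.2% and 29.1% in RIP. The Wilson 95% intervals of the RIP libraries reached at most 33.3%, and those of the other libraries no lower than 57.3%, for counting error only. The call for mt-Nd3 in this comparison was thus present with the 2 loci counted apart and absent with them counted together, and they differ by 1 base in 345.

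mt-Nd4l held 40, 36 and 28 counts in RIP against 4, 1 and 1 in insoluble. The log2 fold change was 3.64 ± 0.38 (SE; edgeR adjusted p = 2.44e-05). Because mt-Nd4l passed the filter only through its RIP counts, this p-value is not read as support. The scaled ratio of sums was 13.1, with an exact 95% interval of 5.80 to 36.4 for counting error only. Gm10222 held 470, 437 and 427 counts in RIP and was higher than in insoluble by 1.50 ± 0.09 on the log2 scale (SE; edgeR adjusted p = 9.90e-07). mt-Nd4l and Gm10222 counted as 1 feature had 139.7 ± 10.5 normalised counts in insoluble and 421.6 ± 19.5 in RIP (SD, n = 3 each), a log2 fold change of 1.59 ± 0.10 (SE; edgeR adjusted p = 7.31e-07). The direction was kept, with a smaller fold. mt-Nd4l made up between 6.15% and 7.84% of the pair's counts in RIP.

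mt-Nd4, which lies directly downstream of mt-Nd4l and shares its last 7 bases, held 29, 28 and 26 counts in RIP against 3, 3 and 4. The log2 fold change was 2.61 ± 0.24 (SE; edgeR adjusted p = 1.09e-05). This p-value is likewise not read as support, since mt-Nd4 passed the filter only through RIP. The scaled ratio of sums was 6.25, with an interval of 3.23 to 13.5. Its copy Gm28439 held at most 1 count in any insoluble or OE library and was not analysed in RIP, so the RIP values of mt-Nd4 are given without it.

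**Figure D3:**
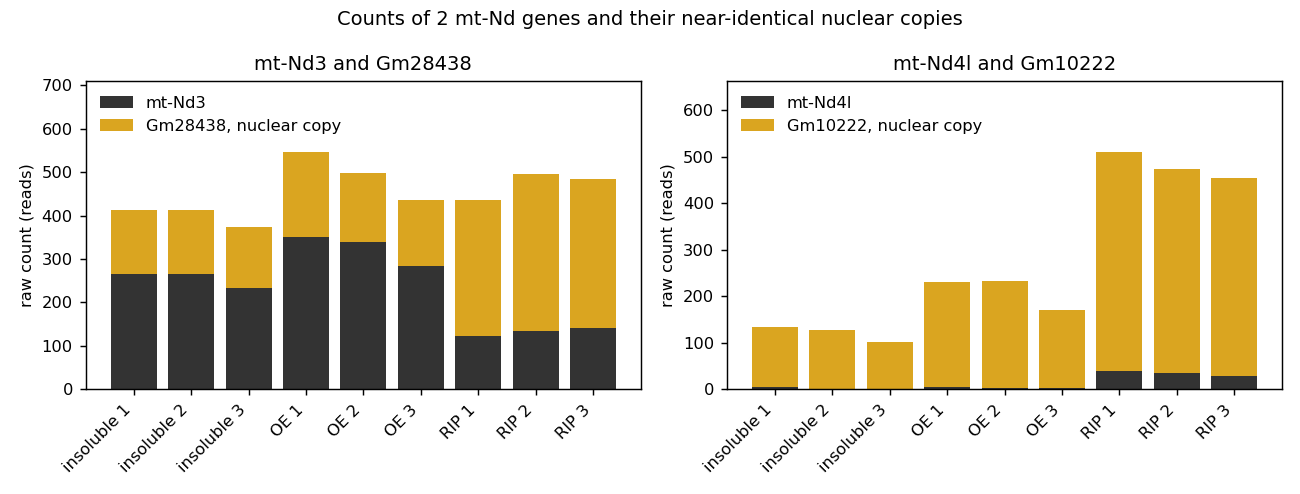
Raw counts of mt-Nd3 and mt-Nd4l (dark) stacked on a linear axis from 0 with those of their nuclear copies Gm28438 and Gm10222 (yellow), 1 bar per library. The whole bars of the mt-Nd3 pair lie between 374 and 546 in all 9 libraries while its dark part shrinks in RIP, and the bars of the mt-Nd4l pair are almost all copy and are tallest in RIP (455 to 510).

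Of the other mitochondrially encoded mRNAs, 5 of 5 tested were called in RIP, with 2 higher and 3 lower. mt-Co3 (log2 fold change 6.03) and mt-Co2 (2.43) rose, with 0.136% and 0% of their words unique. The listed pseudogenes Gm28437 and Gm28661, both on chromosome 1, hold 99.9% and 99.5% of these words. Both went the other way from their genes, with log2 fold changes of -0.35 and -2.34. mt-Atp6 (-1.55), with 0.475% unique, fell, as did mt-Co1 (-3.40, 48.9% unique). Gm10925, which holds 99.5% of the words of mt-Atp6, was listed in the overexpression table only. Gm13340, which holds 27.5% of those of mt-Co1, fell as well (-1.92). mt-Cytb, with 100% of its words unique, held 1096, 929 and 895 counts in insoluble replicates 1 to 3 and at most 2 in RIP.

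The third comparison set RIP against OE directly, over the genes in both tables. Here 6 of 6 members were called, against 81.7% of 191 tested genes. Of them 2 were higher in RIP, against 37.7% of all tested genes, and 4 were lower, against 44.0%. Over all genes, 72 were higher and 84 lower, or 88 and 67 with library totals alone. The groups did not overlap in 6 of 6 members and in 84.8% of all genes, and again mt-Nd4 and mt-Nd4l passed the filter through RIP. mt-Nd2 had the lowest fold change of the members. Its normalised counts were 3870 ± 204 in OE and 412.2 ± 54.5 in RIP (SD, n = 3 each), a log2 fold change of -3.23 ± 0.11 (SE; edgeR adjusted p = 1.41e-07).

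mt-Nd3 fell from 359.5 ± 9.21 to 121.3 ± 5.16 normalised counts, by 1.57 ± 0.09 on the log2 scale (SE; edgeR adjusted p = 2.22e-06). Counted with its copy it gave -0.31 ± 0.08 (edgeR adjusted p = 0.00651), which kept the direction with a smaller fold. mt-Nd1 (-0.52 ± 0.13, adjusted p = 0.00646) and mt-Nd5 (-0.41 ± 0.09, adjusted p = 0.00256) were also lower in RIP by edgeR. Both calls were lost when library totals were used without further scaling (-0.22, adjusted p = 0.143, and -0.11, adjusted p = 0.228). mt-Nd4 (1.50 ± 0.20, adjusted p = 0.00022) and mt-Nd4l (3.37 ± 0.31, adjusted p = 2.73e-05) were higher by edgeR. Both had passed the filter only through RIP, so these 2 p-values are not read as support. Counted with its copy, mt-Nd4l was higher by 0.93 ± 0.09 (edgeR adjusted p = 2.96e-05).

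Shares within the 11 mitochondrially encoded mRNAs in both tables need no scaling between libraries, but depend on how copies are counted. Without copies, the 6 mt-Nd genes together made up 68.6% ± 0.819 of these counts in insoluble, 72.5% ± 1.51 in OE and 61.5% ± 1.60 in RIP (SD, n = 3 each). By library the shares were 67.7%, 68.9% and 69.2% in insoluble, 71.3%, 72.1% and 74.2% in OE and 59.7%, 62.7% and 62.2% in RIP. The 3 groups did not overlap. With the copies of mt-Nd3 and mt-Nd4l added, the shares were 70.35% ± 0.803, 74.04% ± 1.35 and 71.35% ± 1.34 (SD, n = 3 each), and RIP (69.9% to 72.5%) overlapped insoluble (69.4% to 70.9%). With all 5 copies of these mRNAs listed in both tables added, they were 66.98% ± 0.737, 71.45% ± 1.47 and 67.6% ± 0.784, and RIP again overlapped insoluble. Gm10925 and Gm28439, copies of mt-Atp6 and mt-Nd4, were listed in the overexpression table only and are in none of these countings. The lower share in RIP was thus present only without copies, while OE lay above both other groups in each of these countings.

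mt-Nd2 alone made up 45.8% ± 0.917 in insoluble, 54.1% ± 1.52 in OE and 19.7% ± 2.26 in RIP (SD, n = 3 each). With the 5 copies in the total it made up 41.1% ± 0.879, 49.3% ± 1.61 and 13.9% ± 1.72, in the same order. The other single shares are given without copies. mt-Nd5 made up 11.5% ± 0.0872, 8.11% ± 0.576 and 20.9% ± 0.130 in insoluble, OE and RIP, and mt-Nd1 5.49% ± 0.365, 5.14% ± 0.133 and 12.4% ± 2.61. The sum of the 11 mRNAs was lower in RIP, with 2233 to 2317 counts per library against 4194 to 4828 in insoluble and 5899 to 6994 in OE. So mt-Nd5 and mt-Nd1 gained share in RIP while their normalised counts were lower there or did not pass the test.

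**Figure D4:**
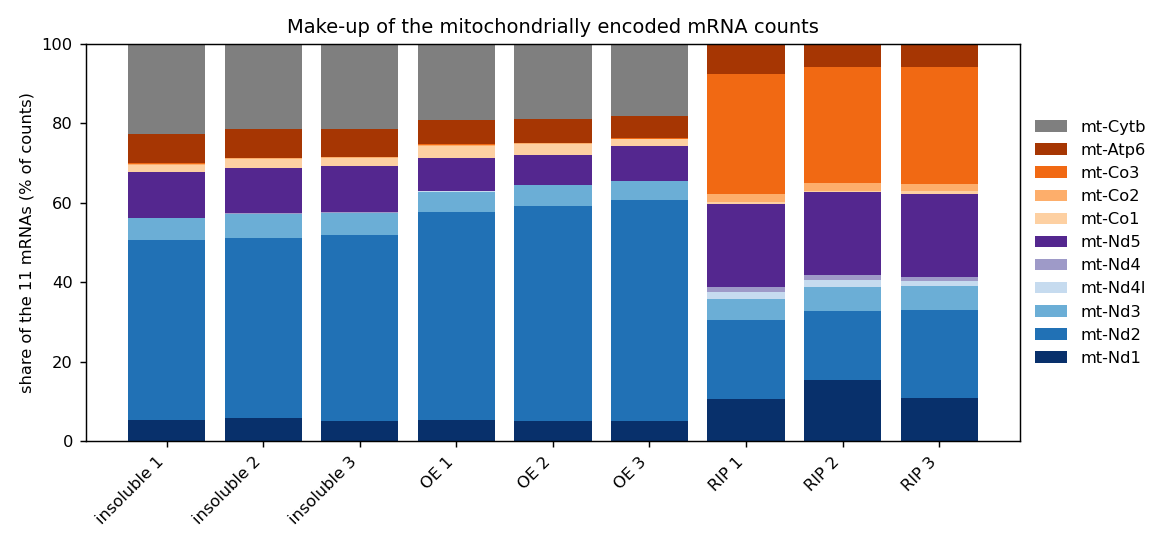
Share of each gene in the counts of 11 mitochondrially encoded mRNAs, without nuclear copies, in percent, 1 bar per library. Blue and purple parts are the mt-Nd genes, orange parts the mt-Co genes and mt-Atp6, and grey is mt-Cytb. mt-Nd2 fills 45.2% to 46.8% of the insoluble bars, 52.5% to 55.6% of the OE bars and 17.5% to 22.0% of the RIP bars, where mt-Co3 takes 29.3% to 30.0% and mt-Cytb is not visible.

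Because YTHDF2 binds m6A, the genes were also searched for GGACT, a common form of the sequence in which m6A is found in nuclear-encoded mRNA. On the coding strand it occurred 2 times in mt-Nd2, at bases 379 and 505, once in mt-Nd4l, at base 220, and once in mt-Nd4, at base 1039. It did not occur in mt-Nd1, mt-Nd3, mt-Nd5 or mt-Nd6. On the opposite strand it occurred once in mt-Nd4 and once in mt-Nd5. The sites on the coding strand are shown with the motif in capitals.
mt-Nd2 first site: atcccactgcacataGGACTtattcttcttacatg
mt-Nd2 second site: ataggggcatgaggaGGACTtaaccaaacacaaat
mt-Nd4l: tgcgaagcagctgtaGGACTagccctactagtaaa
mt-Nd4: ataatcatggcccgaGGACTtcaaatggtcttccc
The windows lie on the plus strand of chromosome M, from 4277 to 4311, 4403 to 4437, 10081 to 10115 and 11190 to 11224. For comparison, GGACT was present on the coding strand in the first 1038 bases of 71.0% of nuclear protein-coding genes, in the first 297 bases of 30.9% and in the first 1378 bases of 79.5%, taking the longest transcript per gene. For the lengths of mt-Nd1, mt-Nd3, mt-Nd5 and mt-Nd6 the shares were 68.4%, 35.0%, 86.65% and 47.5%. Counting either strand, the shares ran from 48.6% at the length of mt-Nd4l to 97.2% at that of mt-Nd5. The nuclear stretches begin at the start of the transcript, so they can hold bases ahead of the coding region. They were not matched to the members in base composition, and the members on the plus strand are poor in G. A match is a description of these letters only. The genes that hold the motif on the coding strand were lower in RIP in the case of mt-Nd2 and higher in the case of mt-Nd4l and mt-Nd4. Of the members without it, mt-Nd5 and, counted apart from its copy, mt-Nd3 were lower in RIP than in insoluble. In that comparison mt-Nd1 did not pass, and mt-Nd6 was not listed for RIP. A link between the motif and the RIP values was not tested, and the site of mt-Nd4l lies in bases identical to those of Gm10222.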

How the data were processed

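RNA was measured by sequencing in 9 libraries. Per the submitters' processing notes, HISAT2 2.1.0, Bowtie2 2.2.3, HTSeq 0.6.0 and the build mm10 were used, with no role given for each. The deposited values are raw counts per gene, per the file headers. Beside them the authors gave a fold change (a ratio, not on a log scale) and a p-value for each gene. The 724 blank rows of the overexpression table were left out. Insoluble counts were the same in both tables for all 194 shared genes.

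Each comparison was fitted on its 6 libraries over all listed genes with edgeR 4.0.16 (R 4.3.3): filterByExpr (minimum count 10, minimum total 15), TMM, the quasi-likelihood test and Benjamini-Hochberg adjustment. The standard error is the log2 fold change divided by the root of F. The fits were tested on simulated data. Alternatives were DESeq2 1.42.0, upper-quartile scaling, library totals alone, scaling from nuclear genes, no filter, a replicate block, leaving out each library and 1 fit of 9 libraries.

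The rule for named genes took all mt-Nd rows, the other listed mitochondrially encoded mRNAs, and the most similar gene per member. The members and lists were chosen with earlier results of these data known, and the fits, levels and shares with nuclear copies were added after the data had been seen. Chi-square per degree of freedom between replicates was 1.17 to 1.33 in insoluble, 1.54 to 2.59 in OE and 5.96 to 12.8 in RIP. Intervals cover counting error only, since reads carrying no molecular identifiers may be copies of 1 molecule. Sequences came from GENCODE M21 transcripts (GRCm38), so nuclear copies outside annotated transcripts are not seen.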

Additional observations from a re-analysis of the deposited data

How the results depend on the processing

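Of 16 fold changes of single mt-Nd genes, 10 stayed called or uncalled under all alternatives run and 0 reversed. The exceptions are mt-Nd1 in all 3 comparisons, mt-Nd5 in OE and against OE, and mt-Nd3 in RIP against insoluble, where counting it with its copy ended the call. Among the 10 are mt-Nd4 and mt-Nd4l in both RIP comparisons, which passed the filter only through RIP. Their stability is not read as support. Fits without single libraries kept the genes of the main fit. mt-Nd1 in RIP against insoluble passed with upper-quartile scaling (-0.55, edgeR adjusted p = 0.00427). In OE against insoluble, 3 mt-Nd genes were called, against 1 in DESeq2, 1 in the fit of all 9 libraries and from 1 to 2 when single libraries were left out. The fit of all 9 libraries called 46 genes in all, against 77. The cause was not tested. With library totals alone, the calls in OE were 31 higher and 47 lower, against 41 and 36, and in RIP against OE 88 higher and 67 lower, against 72 and 84. In RIP against insoluble the median over all genes was 0.03 (log2), but -0.32 with upper-quartile scaling and 0.14 with library totals alone. In RIP against OE it was -0.10, -0.32 and 0.20, and in OE against insoluble -0.01, 0.01 and -0.10. RIP directions are relative to such shifts. As a share of all listed counts, the mt-Nd genes made up 4.215% in insoluble, 5.175% in OE and 1.715% in RIP, another denominator by construction. The first 2 shares are over the 237 genes of the overexpression table, and that of RIP is over 194 genes. Over those 194 genes the insoluble shares were 4.55%, 4.43% and 4.71% in replicates 1 to 3. With the copies of mt-Nd3 and mt-Nd4l added, their share of the mitochondrially encoded mRNAs was 70.35%, 74.04% and 71.35%. With the 5 copies listed in both tables it was 66.98%, 71.45% and 67.6%. These countings were chosen after the data had been seen.

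With the replicate block, 73, 160 and 151 genes were called in the 3 comparisons, against 77, 162 and 156, and no mt-Nd call changed. Deviations of same-numbered libraries correlated at -0.03, 0.05 and 0.09 in OE against insoluble and at 0.09, -0.07 and -0.21 in RIP against insoluble, and at 0.06, -0.23 and -0.14 in RIP against OE, which was not read as pairing. Totals over listed genes limit all scaling, and members under 10 counts could not be compared firmly.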
